A study of Mus musculus with 9 samples.

Results

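Stem cell niche factors are proteins made by cells of the bone marrow that hold, feed or restrain blood-forming stem and progenitor cells. The 9 genes described here are Cxcl12, Kitl, Csf1, Il7, Igfbp3, Igfbp4, Igfbp7, Bmp4 and Ptn. They were taken by gene symbol from a table of 52183 genes, with earlier results of these data known. Messenger RNA was measured in marrow endothelial cells, which line the vessels of the marrow, in 9 mouse libraries that form 3 groups of 3. The first group is labelled as Thbs1 knockout at 18 months of age, the second is an aged control group of 18 months, and the third is a young control group of 3 months. In all groups anti-VE-cadherin antibody, which binds the junctions between endothelial cells, was injected through the retro-orbital sinus 10 minutes before death. Endothelial cells of the long bones were then collected by flow sorting, and libraries were made from 2 ng of total RNA with a full-length cDNA kit for low input (SMART-Seq v4). The strain, the kind of Thbs1 allele and the number of mice behind a library are not given in the labels. The p-values therefore describe the spread between libraries, part of which may be technical.

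In the marrow, vessels and the stromal cells beside them share the work of the niche. CXCL12, a chemokine, keeps stem cells in place through its receptor CXCR4, and stem cell factor, the product of Kitl, acts through the receptor KIT to keep them alive. Leptin receptor-positive stromal cells are known to make much of both, and endothelial cells make a smaller share. The other factors are CSF1, which directs the growth of macrophages, interleukin-7, which supports lymphocyte precursors, BMP4, a morphogen of the TGF-beta family, pleiotrophin (Ptn), a heparin-binding growth factor, and IGF-binding proteins, which carry insulin-like growth factors or act on their own.

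Thbs1, which encodes the matrix protein thrombospondin-1, went against the label. It was at 25.63, 19.45 and 19.84 FPKM (fragments scaled by gene length and library depth) in the knockout-labelled libraries, 0.67, 0.82 and 1.17 FPKM in the aged controls, and 4.55, 3.89 and 4.18 FPKM in the young controls. The group is therefore called knockout-labelled throughout, and the table holds no exon values to show what the transcript contained. All 14 pan-endothelial markers, such as Cdh5 and Pecam1, had a mean of at least 1 FPKM, and their summed level was 2937 to 3091 FPKM in the knockout-labelled libraries, 3076 to 3369 FPKM in the aged controls and 2943 to 3012 FPKM in the young controls. Depth recovered from the values averaged 28550000 fragments in the knockout-labelled group, 23220000 in the aged controls and 23210000 in the young controls. At that depth 20728, 22119 and 21156 genes were above 0 FPKM in the aged controls, against 26135, 26391 and 25153 in the young controls. In the knockout-labelled libraries 24564, 22093 and 21844 genes were. The part of this difference in the levels of low genes was not tested. Knockout-labelled replicate 2 stood apart from its group in Fcgr2b, an Fc receptor of sinusoidal endothelium, with 180.85 FPKM against 41.97 and 47.76 FPKM in replicates 1 and 3.

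The promoters of the 3 members that passed a test below are shown so that the regions can be compared; each runs from 250 bases before to 50 bases after the RefSeq start of the gene on GRCm38.p6, 5′ to 3′ on the gene's own strand. Capitals mark 2 motifs read on both strands. The first is TATAAA, the core of the TATA box. The second is GGGCGG, the core of the GC box, of which overlapping matches were counted separately.
Cxcl12 promoter, chr6:117168285-117168584, plus strand: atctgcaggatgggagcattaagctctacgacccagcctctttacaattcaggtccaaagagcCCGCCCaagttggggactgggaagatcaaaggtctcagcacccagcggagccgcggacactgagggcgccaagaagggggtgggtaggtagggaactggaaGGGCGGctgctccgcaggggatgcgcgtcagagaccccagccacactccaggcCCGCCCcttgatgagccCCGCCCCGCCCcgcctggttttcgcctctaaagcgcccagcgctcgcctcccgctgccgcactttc
Kitl promoter, chr10:100015571-100015870, plus strand: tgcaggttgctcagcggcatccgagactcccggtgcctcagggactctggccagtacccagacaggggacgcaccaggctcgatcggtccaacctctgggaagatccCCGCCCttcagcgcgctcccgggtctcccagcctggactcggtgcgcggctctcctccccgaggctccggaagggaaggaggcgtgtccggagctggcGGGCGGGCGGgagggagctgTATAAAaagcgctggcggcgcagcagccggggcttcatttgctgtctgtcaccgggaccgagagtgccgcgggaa
Igfbp3 promoter, chr11:7213874-7214173, minus strand: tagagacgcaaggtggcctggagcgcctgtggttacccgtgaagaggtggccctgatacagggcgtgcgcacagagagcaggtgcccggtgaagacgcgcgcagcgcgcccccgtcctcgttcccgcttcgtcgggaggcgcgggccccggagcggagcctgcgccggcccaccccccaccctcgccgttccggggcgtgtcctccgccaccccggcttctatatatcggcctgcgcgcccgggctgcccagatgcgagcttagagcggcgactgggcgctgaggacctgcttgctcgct
The Cxcl12 window held 5 GC boxes and no TATAAA at 64.7% G and C. The Kitl window held 3 GC boxes and a TATAAA whose first base lies 25 bases upstream of the start, at 68.7% G and C. The Igfbp3 window held neither set of letters at 71.7% G and C. It does hold the letters tatatat, and variants of the 2 motifs were not searched for. Of 32851 promoters of the same length in the RefSeq table, 13.6% held a TATAAA and 35.7% a GC box, and the median content of G and C was 52.7%. Promoters of 8 of the 9 members were matched, Il7 being the exception. Igfbp4 also held a TATAAA, 28 bases upstream, while Igfbp7, Csf1 and Bmp4 held 4, 2 and 1 GC boxes and Ptn held neither motif. A match describes letters in this window and is not a measured binding site.

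The IGF-binding proteins made up most of the niche factor RNA by level per length. Igfbp7 averaged 1607 FPKM over the 9 libraries and ranked 12 among the 11796 genes whose mean over the libraries reached 1 FPKM, and Igfbp4 averaged 605 FPKM and ranked 56. The order of these 2 rests on their exon lengths of 1209 and 4416 bases. In whole fragments recovered from depth and gene length Igfbp4 exceeded Igfbp7 in each library, for example by 71108 against 53737 in knockout-labelled replicate 1. Together these 2 genes held 92.5% to 95.4% of the summed FPKM of the 9 members in the knockout-labelled libraries, 95.3% to 97.2% in the aged controls and 93.2% to 93.9% in the young controls. The summed level itself overlapped in all groups, with 2202 to 2425 FPKM in the knockout-labelled libraries, 2179 to 2511 FPKM in the aged controls and 2336 to 2416 FPKM in the young controls.

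In the order of levels Igfbp3 followed at a mean of 57.9 FPKM over all libraries, then Cxcl12 at 31.9, Csf1 at 18.9, Bmp4 at 17.1, Kitl at 2.87, Ptn at 0.392 and Il7 at 0.268 FPKM. Not every neighbour in that order was apart: Csf1 and Bmp4 overlapped in each group, and so did Ptn and Il7. Cxcl12 and Csf1 overlapped in the knockout-labelled libraries but not in the young controls. In the aged controls Cxcl12 (28.1 ± 4.97 FPKM) and Igfbp3 (27.7 ± 12.3 FPKM) overlapped (SD, n = 3), whereas Igfbp3 lay above Cxcl12 in each library of the other groups. Ptn and Il7 stayed under the mean of 1 FPKM that the test required, so 7 of the 9 members were tested.

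**Figure D1:**
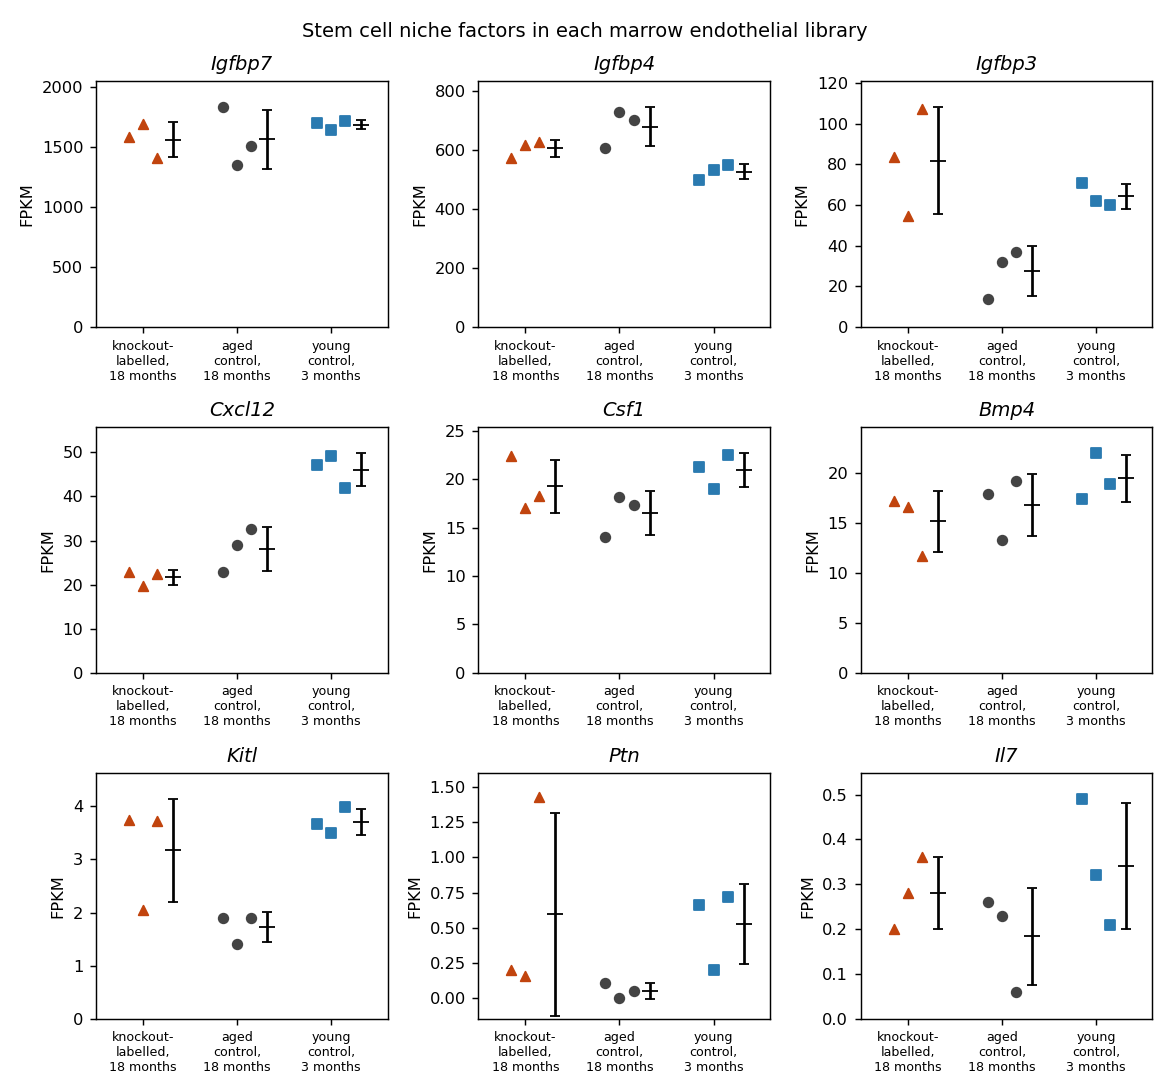
Level of each niche factor in FPKM (vertical axis, linear, a separate scale for each gene) in the knockout-labelled, aged control and young control libraries. Points are the 3 libraries of a group and bars the mean ± SD; Igfbp3 and Kitl are lowest in the aged controls, Cxcl12 is highest in the young controls, and Igfbp7 overlaps in all groups.

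Cxcl12 (ENSMUSG00000061353, GRCm38 chromosome 6, 117168535 to 117181367, plus strand) fell with age and was low in both groups of 18 months. It was at 22.91, 19.67 and 22.35 FPKM in the knockout-labelled libraries, 22.80, 28.92 and 32.64 FPKM in the aged controls, and 47.15, 49.15 and 41.94 FPKM in the young controls. Each library of 18 months lay below each young control, while the knockout-labelled libraries overlapped the aged controls at the level of aged control replicate 1. The means were 21.6 ± 1.73 FPKM in the knockout-labelled group, 28.1 ± 4.97 FPKM in the aged controls and 46.1 ± 3.72 FPKM in the young controls (SD, n = 3 each).

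Changes were tested on the log2(FPKM + 1) scale, which understates those of low genes, with limma and Benjamini-Hochberg adjustment over 11796 genes, and a change counted as called at an adjusted p under 0.05. In aged against young controls Cxcl12 was at 0.61 times the young level, with a log2 fold change of -0.70 ± 0.133 (SE, 95% interval -1.001 to -0.409, limma adjusted p = 0.0355). In knockout-labelled libraries against young controls it was at 0.47 times, with a log2 fold change of -1.06 ± 0.133 (95% interval -1.352 to -0.76, limma adjusted p = 0.0115). Between knockout-labelled libraries and aged controls the log2 difference was -0.35 (95% interval -0.647 to -0.055, limma adjusted p = 0.146), which did not pass. Permuting the library labels exactly (two-sided) gave p = 0.1 for either group of 18 months against the young controls, and no smaller p can be had from 3 against 3. The call of aged against young was lost without any of young controls 1, 2 and 3 (limma adjusted p = 0.141, 0.135 and 0.107), without aged control 2 (0.0512) and without knockout-labelled replicate 3 (0.0535). That of knockout-labelled against young was lost without knockout-labelled replicates 1 and 2 (limma adjusted p = 0.0537 and 0.0562) and without young controls 1 and 2 (0.0922 and 0.09), and without aged control 1 the difference of knockout-labelled libraries from aged controls passed (0.0472).

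Some transcripts of marrow stroma were also lower with age. Of 18 markers of stromal cells, osteoblasts and adipocytes, 8 were tested; in aged against young controls 3 fell, namely Ibsp (bone sialoprotein), Lpl (lipoprotein lipase) and Adipoq (adiponectin), 5 did not pass, and the median log2 change of the 8 was -0.41, beside -0.045 over all tested genes. Over all tested genes 2.8% were called lower in this comparison. For Ibsp the log2 fold change was -2.23 (limma adjusted p = 0.0135, called with 7 of 9 single-library omissions), and for Lpl it was -1.26 (limma adjusted p = 0.0408, called with 3 of 9). Alpl, alkaline phosphatase, differed by 0.58 in the other direction (limma adjusted p = 0.211), and Foxc1, a transcription factor, by -0.01 (limma adjusted p = 0.989). Against the aged controls the list did not run one way in the knockout-labelled libraries: Adipoq fell, Ibsp was 2.24 times higher without passing (limma adjusted p = 0.0924), and 4 of the 8 had a log2 change above 0. The summed level of the 18 was 40.45 to 53.62 FPKM in the knockout-labelled libraries, 45.39 to 46.57 FPKM in the aged controls and 68.58 to 98.93 FPKM in the young controls. Adipoq, which adipocytes and marrow stromal cells transcribe, was at 3.33, 3.41 and 4.55 FPKM in the knockout-labelled libraries, 5.65, 5.53 and 6.72 FPKM in the aged controls, and 14.47, 12.51 and 12.34 FPKM in the young controls. Its 3 groups did not overlap, and it was called lower in knockout-labelled libraries against aged controls (log2 fold change -0.55, limma adjusted p = 0.0389), in knockout-labelled libraries against young controls (-1.57, 0.00044) and in aged against young controls (-1.02, 0.00814). These calls held with 1, 9 and 7 of the 9 single-library omissions. Lepr, the leptin receptor, was at 7.70, 3.33 and 6.09 FPKM in the knockout-labelled libraries, 7.15, 7.57 and 3.98 FPKM in the aged controls, and 9.96, 10.22 and 8.73 FPKM in the young controls. It was highest in the young controls but passed in no comparison (limma adjusted p = 0.179 to 0.809). The defining markers Pdgfra, Pdgfrb, Col1a1, Col1a2, Bglap, Runx2, Sp7, Lum, Dcn and Prrx1 had means under 1 FPKM, and none of the 18 was at 0 in all libraries. Smooth muscle and pericyte markers summed to 1.55 to 7.84 FPKM in the knockout-labelled libraries, 3.33 to 7.28 FPKM in the aged controls and 10.73 to 14.44 FPKM in the young controls. The part of stromal and mural RNA in the Cxcl12 result was not tested, and in sorted bulk RNA fewer cells of a type and less RNA per cell cannot be told apart.

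**Figure D2:**
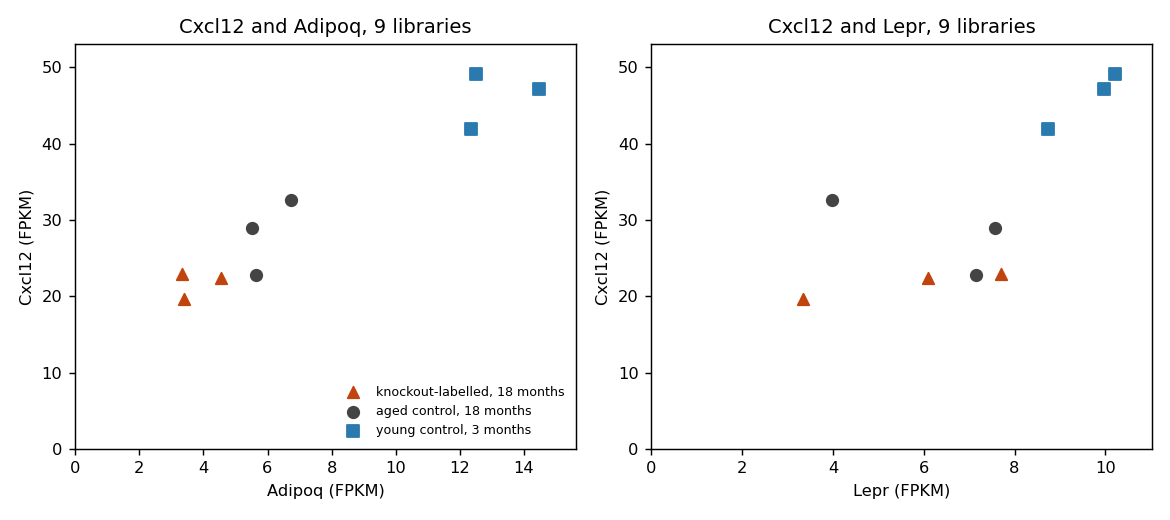
Cxcl12 level (vertical axis, FPKM) against Adipoq (left) and Lepr (right, horizontal axes in FPKM), with 1 point for each of the 9 libraries. The young controls, at 41.94 to 49.15 FPKM of Cxcl12, also hold the highest Adipoq and Lepr, and the 3 groups separate by Adipoq but not by Lepr.

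Kitl (ENSMUSG00000019966, GRCm38 chromosome 10, 100015630 to 100100416, plus strand) fell with age at a much lower level than Cxcl12. Kitl was at 3.74, 2.05 and 3.72 FPKM in the knockout-labelled libraries, 1.89, 1.40 and 1.90 FPKM in the aged controls, and 3.66, 3.49 and 3.98 FPKM in the young controls. The aged controls lay below each library of both other groups, and knockout-labelled replicate 2 was the one close to them. In whole fragments recovered from depth and gene length these levels rest on 619, 368 and 599 fragments in the knockout-labelled libraries, 248, 190 and 276 fragments in the aged controls, and 495, 472 and 562 fragments in the young controls.

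In aged against young controls Kitl was at 0.466 times the young level (log2 fold change -0.79 ± 0.178 SE, 95% interval -1.188 to -0.394, limma adjusted p = 0.0435, with an exact permutation p of 0.1). Against the aged controls the knockout-labelled libraries were at 1.83 times, a log2 difference of 0.59 (95% interval 0.19 to 0.985) that did not pass (limma adjusted p = 0.0876). Against the young controls the knockout-labelled libraries differed by -0.20 (95% interval -0.601 to 0.194, limma adjusted p = 0.764). Without knockout-labelled replicate 2 the difference from the aged controls passed at a log2 change of 0.80 (limma adjusted p = 0.00939). The call of aged against young held with 2 of the 9 single-library omissions, those of knockout-labelled replicates 1 and 2; the limma adjusted p was 0.061 without knockout-labelled replicate 3, 0.0581, 0.0742 and 0.0736 without aged controls 1, 2 and 3, and 0.151, 0.136 and 0.14 without young controls 1, 2 and 3. It was also lost after median-ratio scaling (0.0511) and quantile normalization (0.0557). Relative to Cxcl12, Kitl stood at 10.42 to 16.64 FPKM per 100 FPKM of Cxcl12 in the knockout-labelled libraries, 4.84 to 8.29 in the aged controls and 7.1 to 9.49 in the young controls, so that the knockout-labelled range lay above both others. Of the 8 tested stromal markers Ibsp, Lpl and Adipoq were called lower beside Kitl in aged against young controls. The other 5 did not pass, and Alpl was higher by a log2 change of 0.58 (limma adjusted p = 0.211). The summed stromal level was 40.45 to 53.62 FPKM in the knockout-labelled libraries, 45.39 to 46.57 FPKM in the aged controls and 68.58 to 98.93 FPKM in the young controls. The part of stromal RNA in the Kitl result was not tested.

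Igfbp3 (ENSMUSG00000020427, GRCm38 chromosome 11, 7206086 to 7213923, minus strand), a carrier of insulin-like growth factors, was higher in the knockout-labelled libraries than in the aged controls. It was at 83.66, 54.83 and 107.17 FPKM in the knockout-labelled libraries, 13.76, 32.16 and 37.12 FPKM in the aged controls, and 71.08, 61.86 and 59.82 FPKM in the young controls. The aged controls lay below each library of both other groups, and the knockout-labelled libraries spread around the young controls. The means were 81.9 ± 26.2 FPKM in the knockout-labelled group, 27.7 ± 12.3 FPKM in the aged controls and 64.3 ± 6.0 FPKM in the young controls (SD, n = 3 each).

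The knockout-labelled mean of Igfbp3 was 2.96 times the aged control mean (log2 fold change 1.59 ± 0.337 SE, 95% interval 0.84 to 2.344, limma adjusted p = 0.0291, with an exact permutation p of 0.1). The aged controls were at 0.431 times the young level, a log2 difference of -1.29 ± 0.337 (95% interval -2.047 to -0.543) that did not pass (limma adjusted p = 0.0602) and passed without knockout-labelled replicate 2 (0.0405). Knockout-labelled libraries and young controls differed by 0.30 (95% interval -0.455 to 1.049, limma adjusted p = 0.823). The call against the aged controls was lost without knockout-labelled replicates 1 and 3 (limma adjusted p = 0.111 and 0.108), without young controls 1, 2 and 3 (0.052, 0.0536 and 0.0539) and when these 2 groups were fitted alone (0.0992). Of 8 sinusoidal markers Fcgr2b (log2 fold change -2.05, limma adjusted p = 0.0352) and Dnase1l3 (-0.75, 0.0415) fell in the same comparison. The tight junction gene Cldn5 fell too (-0.78, limma adjusted p = 0.00897). The other 6 sinusoidal markers did not pass. Over all tested genes 2.01% were called lower in this comparison. Stab2, the highest of that list, was higher by a log2 change of 0.10 (limma adjusted p = 0.692). With single libraries omitted, Fcgr2b and Dnase1l3 were called in 1 of 9 fits each and Cldn5 in 9. The summed sinusoidal level was 973 to 1190 FPKM in the knockout-labelled libraries, 1324 to 1516 FPKM in the aged controls and 1108 to 1148 FPKM in the young controls; its part in the Igfbp3 and Kitl results was not tested.

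Igfbp4 (ENSMUSG00000017493, GRCm38 chromosome 11, 99041244 to 99054392, plus strand), which binds insulin-like growth factors until the protease pappalysin cleaves it, ran the other way with age but passed in no comparison. It was at 574.88, 616.31 and 627.59 FPKM in the knockout-labelled libraries, 607.11, 730.67 and 703.54 FPKM in the aged controls, and 499.21, 533.62 and 550.27 FPKM in the young controls. Both groups of 18 months lay above the young controls without overlap. The log2 difference of aged from young controls was 0.36 ± 0.0995 (SE, 95% interval 0.141 to 0.585, limma adjusted p = 0.0678), and it passed after median-ratio scaling (0.0488) and without aged control 1 (0.0467), but was 0.19 after quantile normalization (0.281). The knockout-labelled libraries differed from the aged controls by -0.16 (limma adjusted p = 0.348), with the sign turned to 0.007 under quantile normalization, and from the young controls by 0.20 (limma adjusted p = 0.576). Igfbp3 per 100 FPKM of Igfbp4 came to 8.9 to 17.08 in the knockout-labelled libraries, 2.27 to 5.28 in the aged controls and 10.87 to 14.24 in the young controls. The aged controls stood below both other groups in this ratio. It reuses the Igfbp3 values given above and is no separate result.

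Igfbp7 (ENSMUSG00000036256, GRCm38 chromosome 5, 77349240 to 77408041, minus strand) encodes a secreted protein of the vessel wall that binds the endothelial receptor CD93 and holds insulin-like growth factors only weakly. It was at 1586.83, 1697.69 and 1409.47 FPKM in the knockout-labelled libraries, 1833.10, 1354.19 and 1513.04 FPKM in the aged controls, and 1704.34, 1646.09 and 1717.41 FPKM in the young controls. The groups overlapped, and the 95% interval of the log2 difference ran from -0.278 to 0.288 for knockout-labelled libraries against aged controls and from -0.403 to 0.163 for aged against young controls (limma adjusted p = 0.987 and 0.572). Igfbp7 shares its locus with Polr2b and Gm34648, and since the strand setting of the authors' counting is not stated, its level is uncertain to that extent. Cd93 itself was at 86.81, 78.92 and 103.09 FPKM in the knockout-labelled libraries, 76.51, 72.79 and 73.68 FPKM in the aged controls, and 80.58, 77.74 and 76.62 FPKM in the young controls. It did not pass in any comparison (limma adjusted p = 0.165 to 0.673).

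Of the IGF axis outside the members, 3 of 9 genes were tested and none was called in any comparison. Igfbp2 was at 35.64, 27.83 and 38.21 FPKM in the knockout-labelled libraries, 6.26, 86.56 and 28.37 FPKM in the aged controls, and 31.25, 32.23 and 24.39 FPKM in the young controls. The aged controls alone held both its lowest and its highest value. Igfbp5 was at 7.01, 5.45 and 18.33 FPKM in the knockout-labelled libraries, 4.34, 6.98 and 4.40 FPKM in the aged controls, and 12.72, 9.81 and 7.10 FPKM in the young controls. Igfbp1, Igfbp6 and the growth factor Igf2 stayed under 1 FPKM in each library.

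**Figure D3:**
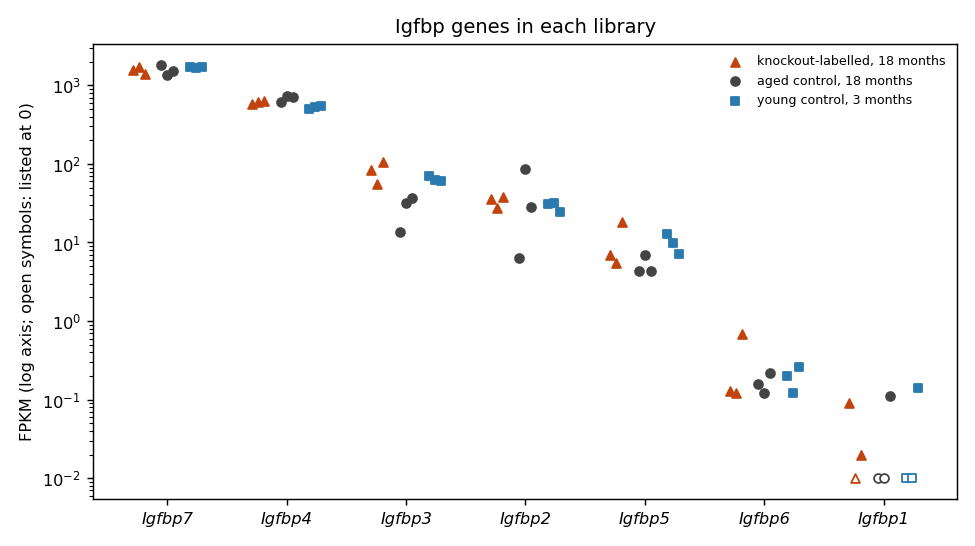
Levels of 7 Igfbp genes (vertical axis, FPKM on a log scale; open symbols at the bottom are values listed at 0) in the knockout-labelled, aged control and young control libraries, 1 symbol per library. Igfbp7 and Igfbp4 stand above the rest, Igfbp3 is lowest in the aged controls, and Igfbp2 spreads from 6.26 to 86.56 FPKM within the aged controls.

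Csf1 (ENSMUSG00000014599, GRCm38 chromosome 3, 107741048 to 107760469, minus strand) was at 22.36, 17.05 and 18.30 FPKM in the knockout-labelled libraries, 13.98, 18.19 and 17.34 FPKM in the aged controls, and 21.29, 18.99 and 22.45 FPKM in the young controls. The aged controls lay just below the young controls, at a log2 difference of -0.33 that did not pass (limma adjusted p = 0.144), and the knockout-labelled libraries overlapped both other groups. Bmp4 (ENSMUSG00000021835, GRCm38 chromosome 14, 46383520 to 46390669, minus strand) was at 17.19, 16.53 and 11.66 FPKM in the knockout-labelled libraries, 17.82, 13.22 and 19.20 FPKM in the aged controls, and 17.40, 21.93 and 18.90 FPKM in the young controls. The knockout-labelled libraries lay just below the young controls, at a log2 difference of -0.35 (95% interval -0.739 to 0.035) that did not pass (limma adjusted p = 0.571). Bmp4 overlaps the predicted genes Gm15217 and Gm15222, so its level carries the same limit as that of Igfbp7.

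Ptn and Il7 were near the floor of the measurement and were not tested. Ptn (ENSMUSG00000029838, GRCm38 chromosome 6, 36714929 to 36810220, minus strand) was at 0.20, 0.16 and 1.43 FPKM in the knockout-labelled libraries, 0.11, 0.00 and 0.05 FPKM in the aged controls, and 0.66, 0.20 and 0.72 FPKM in the young controls. These values rest on 19, 17 and 134 recovered fragments in the knockout-labelled libraries, 8, 0 and 4 fragments in the aged controls, and 52, 16 and 59 fragments in the young controls. Each aged control was below each library of the other groups, and knockout-labelled replicate 3 held the highest level. Il7 (ENSMUSG00000040329, GRCm38 chromosome 3, 7569994 to 7613760, minus strand) was at 0.20, 0.28 and 0.36 FPKM in the knockout-labelled libraries, 0.26, 0.23 and 0.06 FPKM in the aged controls, and 0.49, 0.32 and 0.21 FPKM in the young controls. Its groups overlapped, it rests on 8 to 63 fragments in a library, and it overlaps the predicted gene Gm16685.

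The members' counts are given beside those over all genes. In knockout-labelled libraries against aged controls 1 of the 7 tested members was called, Igfbp3 as higher, where 4.79% of the 11796 genes were called (328 or 2.78% higher and 237 or 2.01% lower). The members' median log2 change was 0.01, beside 0.002 over all tested genes, and 2 members, both higher, did not overlap between the groups, where 23.2% of genes did not (12.1% higher and 11.1% lower). In knockout-labelled libraries against young controls 1 member was called, Cxcl12 as lower, where 0.212% of genes were called (10 or 0.0848% higher and 15 or 0.127% lower). The median was -0.12 beside -0.033, and 3 members did not overlap, 1 higher and 2 lower, where 22.4% of genes did not (8.46% higher and 14% lower). In aged against young controls 2 members were called, Cxcl12 and Kitl as lower, where 3.99% of genes were called (141 or 1.2% higher and 330 or 2.8% lower). That split over all genes became 215 higher and 200 lower with median-ratio scaling, and 160 higher and 199 lower with quantile normalization. The members' median was -0.33 beside -0.045, and 5 members did not overlap, 1 higher and 4 lower, where 35.7% of genes did not (13.9% higher and 21.8% lower). Each of the 3 groups enters 2 of the 3 comparisons, so the comparisons are not independent. The same 3 aged control libraries are the group of interest in one and the control in another. Low levels in them alone would therefore give both a fall in aged against young controls and a rise in knockout-labelled against aged libraries.

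**Figure D4:**
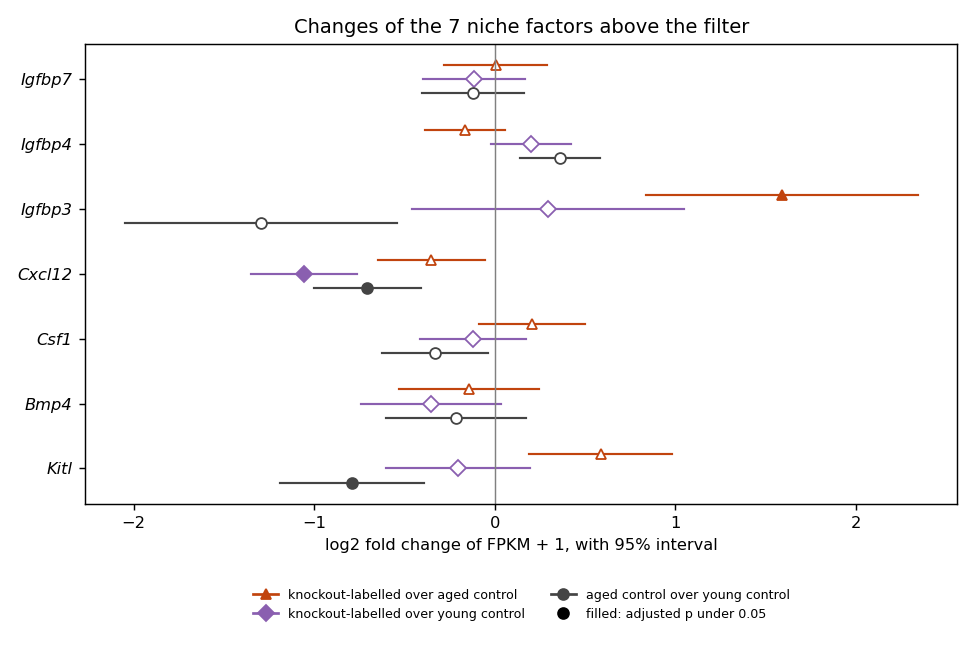
Log2 fold change of FPKM + 1 (horizontal axis) with its 95% interval for the 7 tested niche factors in the 3 comparisons, filled where the adjusted p was under 0.05. The filled symbols are Igfbp3 at 1.59 for knockout-labelled over aged control, Cxcl12 at -1.06 for knockout-labelled over young control, and Cxcl12 and Kitl at -0.70 and -0.79 for aged over young control.

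Among receptors for the members, 13 of 20 were tested. None was called in knockout-labelled libraries against aged or young controls, with median log2 changes of 0.04 and -0.05. In aged against young controls 1 fell and the median was -0.22. Over all tested genes the medians were 0.002, -0.033 and -0.045 in that order, and 2.8% were called lower in the last comparison. The gene that fell was Acvr2a, a type II receptor for activins and BMPs. It was at 11.38, 6.51 and 11.50 FPKM in the knockout-labelled libraries, 5.19, 7.07 and 4.65 FPKM in the aged controls, and 10.88, 11.90 and 10.31 FPKM in the young controls (log2 fold change of aged against young -0.87, limma adjusted p = 0.0462). Its call was kept with 3 of the 9 single-library omissions (limma adjusted p = 0.0126 to 0.157). Kit, the receptor of stem cell factor, was at 6.04, 5.35 and 7.11 FPKM in the knockout-labelled libraries, 2.30, 4.18 and 5.26 FPKM in the aged controls, and 6.38, 5.50 and 5.70 FPKM in the young controls. The aged controls were lowest, and no comparison passed (limma adjusted p = 0.126 to 0.953). Ackr3, which takes up CXCL12 and clears it, was at 3.00, 3.72 and 4.51 FPKM in the knockout-labelled libraries, 1.60, 1.93 and 2.95 FPKM in the aged controls, and 5.33, 3.63 and 3.90 FPKM in the young controls. It too was lowest in the aged controls without passing (limma adjusted p = 0.0587 to 0.837).

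Of 19 proteases and extracellular regulators that act on such factors, 10 were tested. In knockout-labelled libraries against aged controls 1 rose and the median log2 change was 0.29. Over all tested genes 2.78% were called higher there and the median was 0.002. In knockout-labelled libraries against young controls none was called, with a median of 0.01 beside -0.033. In aged against young controls 2 fell, with a median of -0.14 beside -0.045, where 2.8% of all tested genes were called lower. The gene that rose was Adamts1, a secreted metalloproteinase that cuts matrix proteoglycans. It was at 417.74, 272.56 and 288.95 FPKM in the knockout-labelled libraries, 142.93, 152.17 and 154.82 FPKM in the aged controls, and 268.84, 253.36 and 233.49 FPKM in the young controls. The aged controls lay below both other groups, by a log2 change of 1.09 for knockout-labelled libraries against aged controls (limma adjusted p = 0.0058, called whichever of the 9 libraries was omitted) and of -0.74 for aged against young controls (0.0363, called in 2 of the 9). Adam10, a membrane protease that sheds surface proteins, was at 48.50, 39.07 and 49.42 FPKM in the knockout-labelled libraries, 36.82, 38.44 and 31.12 FPKM in the aged controls, and 54.75, 53.09 and 54.97 FPKM in the young controls (log2 fold change of aged against young -0.61, limma adjusted p = 0.0355, called with 4 of 9 single-library omissions).

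Of 26 further niche ligands, 18 were tested. In knockout-labelled libraries against aged controls 3 rose and none fell, with a median log2 change of 0.22. Over all tested genes 2.78% were called higher and the median was 0.002. The Notch ligands Jag1 and Dll1 were 2 of the 3 that rose. Jag1 was at 33.14, 23.29 and 26.05 FPKM in the knockout-labelled libraries, 14.62, 14.34 and 17.63 FPKM in the aged controls, and 21.62, 20.82 and 20.46 FPKM in the young controls (log2 fold change of knockout-labelled against aged 0.78, limma adjusted p = 0.0126, called with all 9 single-library omissions). Dll1 was at 21.77, 22.50 and 20.58 FPKM in the knockout-labelled libraries, 9.95, 12.74 and 14.64 FPKM in the aged controls, and 18.16, 13.88 and 14.30 FPKM in the young controls (log2 fold change 0.77, limma adjusted p = 0.0201, called in 7 of 9). The knockout-labelled libraries were above both other groups for these 2 genes, and neither passed against the young controls (limma adjusted p = 0.44 for Jag1 and 0.339 for Dll1).

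The third was Sele, the adhesion molecule E-selectin, which rose in knockout-labelled libraries against aged controls and fell in aged against young controls. It was at 504.60, 452.33 and 412.26 FPKM in the knockout-labelled libraries, 338.65, 334.70 and 245.05 FPKM in the aged controls, and 528.17, 540.04 and 490.86 FPKM in the young controls. The log2 fold change was 0.59 for knockout-labelled against aged (limma adjusted p = 0.042, called with 2 of 9 such omissions) and -0.78 for aged against young (0.03, called in 6 of 9). Esm1, an endothelial proteoglycan, was the other ligand that fell with age, and it was at 7.15, 4.28 and 7.44 FPKM in the knockout-labelled libraries, 3.34, 2.77 and 4.50 FPKM in the aged controls, and 10.68, 11.26 and 8.60 FPKM in the young controls (log2 fold change of aged against young -1.31, limma adjusted p = 0.0185, called in 6 of 9). The median of the 18 was -0.14 in aged against young controls, beside -0.045 over all tested genes, of which 2.8% were called lower. In knockout-labelled libraries against young controls none of the 18 was called and the median was 0.01, beside -0.033.

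**Figure D5:**
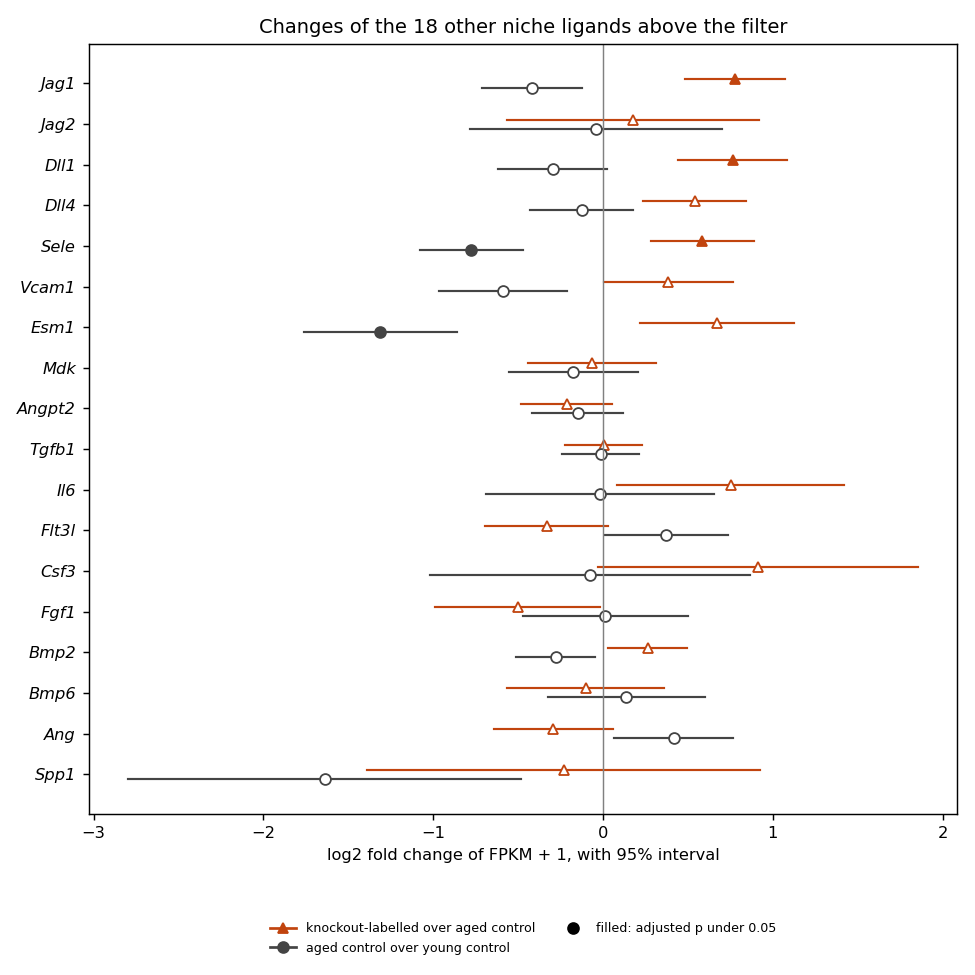
Log2 fold change of FPKM + 1 (horizontal axis) with its 95% interval for the 18 further niche ligands that were tested, for knockout-labelled over aged control (triangles) and aged over young control (circles), filled where the adjusted p was under 0.05. Jag1, Dll1 and Sele are filled above 0 for knockout-labelled over aged control, and Sele and Esm1 are filled below 0 for aged over young control.

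Likeness to each member was ranked by Pearson's r of log2(FPKM + 1) over the 9 libraries, as a description. The 9 libraries fall into 3 groups, so r reflects differences between groups as well as within them. Most like Igfbp3 were Col4a1, a type IV collagen of basement membrane (r = 0.994), the adhesion receptor Adgrl2 (0.989) and Tcaf2 (0.981). Col4a1 was at 212.82, 140.6 and 267.5 FPKM in the knockout-labelled libraries, 32.69, 73.45 and 99.98 FPKM in the aged controls, and 167.43, 135.48 and 134.25 FPKM in the young controls. Its order of libraries is close to that of Igfbp3, with aged control 1 lowest and knockout-labelled replicate 3 highest. Col4a1 was picked for this likeness, so the shared order is no separate result.

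Most like Kitl were Crot, a peroxisomal acyltransferase (r = 0.981), Ebf1, a transcription factor (0.98), and Pde8a, a phosphodiesterase (0.97). Ebf1 was at 2.81, 1.74 and 3.10 FPKM in the knockout-labelled libraries, 1.35, 1.13 and 1.70 FPKM in the aged controls, and 2.85, 2.57 and 2.82 FPKM in the young controls. As with Kitl, knockout-labelled replicate 2 was the lowest of its group and the aged controls were lowest of all. Ebf1 was picked for its likeness to Kitl over these same libraries, so this shared order follows from the choice. Most like Cxcl12 were Adipoq (r = 0.959), the nuclear pore gene Seh1l (0.942) and Rsrc1 (0.941). For Csf1 they were Myh9 (0.97), Nsd3 (0.951) and Dnajc18 (0.95), and for Igfbp4 they were Tbc1d2b (0.945), Scamp3 (0.93) and the sinusoidal marker Flt4 (0.919). For Igfbp7 they were Ebna1bp2 (0.936), Xrcc4 (0.934) and Med29 (0.927), and for Bmp4 they were Kdm3b (0.896), Rny1 (0.891) and Pabpc4 (0.87). The 7 tested members did not share a nearest gene.

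The remaining marker lists held few or no calls. Of 14 pan-endothelial markers Cldn5, the highest of them, rose (log2 fold change 0.74, limma adjusted p = 0.0232) and Erg, an endothelial transcription factor, fell (-0.60, 0.0447) in aged against young controls, calls that held with 6 and 3 of the 9 single-library omissions. Over all tested genes 1.2% were called higher and 2.8% lower in that comparison. No arterial, smooth muscle, B-lineage, myeloid, megakaryocyte or erythroid marker was called in any comparison. The B-lineage and plasma cell markers, led by Igkc, summed to 4.63 to 1787 FPKM in the knockout-labelled libraries, 478 to 3018 FPKM in the aged controls and 6.35 to 518 FPKM in the young controls. The highest gene of each other list, by its mean over the 9 libraries, was Stab2 at 305.0 FPKM for the sinusoidal, Ly6a at 434.0 FPKM for the arterial and Ibsp at 13.0 FPKM for the stromal list. It was Rgs5 at 3.21 FPKM for the smooth muscle, S100a8 at 28.9 FPKM for the myeloid, Pf4 at 19.0 FPKM for the megakaryocyte and Hbb-bs at 67.1 FPKM for the erythroid list.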

How the data were processed

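RNA of sorted mouse marrow endothelial cells was analysed in 9 libraries, grouped by genotype and age labels. The authors deposited FPKM for 52183 genes with 2 decimals. STAR, edgeR and FastQC 0.11.5 are named, with the builds GRCm38 and mm10, per the submitters' processing notes; neither counting rules nor strand setting are stated there. Coordinates and exon lengths come from GENCODE M21 (GRCm38), in which all 52183 identifiers were found; promoters come from RefSeq. Every column had a sample, and no 2 libraries were identical.

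Depth was recovered from steps in low FPKM of genes of 60 to 400 bases, where 99.5% to 99.8% of values were whole fragments within 0.1, and was 22160000 to 30410000 fragments per library. It sets counting error only. The main test was limma 3.58.1 (R 4.3.3) on log2(FPKM + 1), with all 9 libraries, a mean per group, 6 residual degrees of freedom, eBayes with trend, and Benjamini-Hochberg adjustment over the 11796 genes whose mean reached 1 FPKM, at a threshold of 0.05. The script was tested on simulated data. Exact permutation tests were two-sided. Alternatives were quantile and median-ratio scaling, a filter at 5 FPKM or none, pseudocounts of 0.1 and 5, the compared groups alone, a replicate block, each library left out, and limma voom on recovered fragments, which was chosen after seeing the data.

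The members, gene lists and tests were chosen with earlier results of these data known. Named genes are all members, the called genes of each list (up to 6 of a pathway list and 3 of a marker list), the highest gene of a marker list, the 3 genes most like each tested member without predicted genes, and Thbs1; Lepr, Alpl, Foxc1, Cdh5, Pecam1, the stromal markers under 1 FPKM, Kit, Ackr3, Cd93, Igfbp1, Igfbp2, Igfbp5, Igfbp6 and Igf2 lie outside it and were added after their values were seen. Reads and splicing were not analysed here. Figures were drawn with matplotlib 3.10.9.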

Additional observations from a re-analysis of the deposited data

How the results depend on the processing

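No result changed direction while called. The number of genes called in aged against young controls was 39 with no filter, 716 with the compared groups alone and 183 with the replicate block, against 471; in knockout-labelled libraries against aged controls it was 146 with no filter and 149 with the groups alone, against 565; in knockout-labelled libraries against young controls it was 15 with no filter and 12 at a mean of at least 5 FPKM, against 25. With single libraries left out, the count for knockout-labelled against aged ran from 197 to 1159: 197, 1159 and 224 without knockout-labelled replicates 1, 2 and 3, and 313, 301 and 283 without young controls 1, 2 and 3. For knockout-labelled against young it ran from 11 to 31, with 12 without knockout-labelled replicate 1 and 11 without young control 1 or 2. For aged against young it ran from 5 to 1039: 5, 31 and 12 without young controls 1, 2 and 3, 253 and 126 without aged controls 2 and 3, and 1039 and 115 without knockout-labelled replicates 2 and 3. Called members, 1, 1 and 2 in that order, became 0 to 2, 0 to 1 and 0 to 3 in these fits, and 0, 0 and 0 with no filter; with the groups alone Igfbp3 was lost and 0 were called against the aged controls. In aged against young controls 1 member was called after quantile normalization (Cxcl12) and 1 with the replicate block (Kitl; Cxcl12 at limma adjusted p = 0.0566). At a mean of at least 5 FPKM Kitl was not fitted and Igfbp3 and Cxcl12 were called; limma voom on recovered fragments, chosen after seeing the data, called Igfbp3 (0.0424) with Cxcl12 and Kitl. Same-numbered libraries did not deviate together (r = -0.129 to 0.124 over 9 pairs), so the numbers were not taken as pairs. Over single genes and list medians, 1753 alternative values kept their call or size, 141 no longer passed, 20 newly passed and 24 moved. The counts of called genes and of called members given above are not part of this tally. The cause of these shifts was not tested. Ptn and Il7 are limited by depth, at 0 to 134 fragments in a library.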
